A study of Mus musculus with 24 samples.

Results

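Hippocampal RNA of 3 wild-type (WT) mice culled 3 h after fear conditioning was compared with that of 3 naive WT mice that were not conditioned. These 6 libraries, chosen by the genotype and time given in the sample labels, are part of 24 libraries of the same study. All mice, those labelled as knock-outs included, were male, of 8 to 12 weeks and of the strain C57BL/6J. Conditioning paired tones with foot shocks in a chamber, after which the mice went back to their home cages. The other groups, again of 3 mice each, were WT mice at 15 min and 1 h, and naive, 15 min, 1 h and 3 h mice labelled as knock-outs of the anti-proliferative factor Tob (Tob-KO). The 12 libraries labelled Tob-KO were used to choose early genes, for their own change from naive to 3 h, and to test the difference between genotypes. Counts of the targeted gene, listed as Tob1, went against this label, at 33.7 to 44.4 CPM (library-size-scaled counts) in WT and 52 to 68.6 CPM in the libraries labelled Tob-KO. The exons from which these reads came cannot be read from gene counts. The naive mice had no exposure to chamber, tone or shock that the labels name, so the effects of these cannot be told apart.

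Neuronal activity and stress switch on immediate early genes, which need no new protein for their induction and whose mRNAs are short-lived. Fos, Fosb, Junb and the Egr family encode transcription factors, and Arc encodes a protein that acts at synapses. Slower programmes follow, among them genes induced by glucocorticoids and genes of protein folding in the endoplasmic reticulum, where Hspa5 (BiP), the main chaperone of that compartment, is a classical target of the unfolded protein response.

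No gene differed between 3 h and naive in WT hippocampus at a false discovery rate (FDR) of 0.05 or less. In the quasi-likelihood test of edgeR over the 12 WT libraries, which tested 18937 genes, 0 passed (0% called), and the smallest FDR was 1.00. An unadjusted p under 0.05 was reached by 646 genes (3.41%), of which 221 had a higher (1.17%) and 425 a lower (2.24%) level at 3 h. All 3 libraries at 3 h lay above all 3 naive libraries for 828 genes (4.37%) and below them for 991 (5.23%). The log2 fold change was positive for 9376 genes (49.5%), with a median of -0.0012. With only the 6 libraries compared in the fit, again 0 genes passed and 639 had an unadjusted p under 0.05, and with all 24 libraries these numbers were 0 and 779.

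The gene with the smallest p, Mamdc2 (chr19:23302609-23448442, reverse strand, GRCm38), encodes a proteoglycan with MAM domains. It had 7.78, 9.26 and 9.15 CPM in the naive libraries and 4.32, 4.85 and 3.59 at 3 h, so that every 3 h library lay below every naive one. The log2 fold change was -1.04 (95% interval -1.44 to -0.63, edgeR quasi-likelihood FDR = 1.00). Other tests differed in this call. The exact test of edgeR over the 6 libraries called Mamdc2 alone among 18324 genes (FDR = 0.000133, 0.00546% called), DESeq2 over the 12 WT libraries also called this gene alone (adjusted p = 0.00196; its unadjusted p was under 0.05 for 467 genes), and so did the quasi-likelihood test without a filter on low counts (FDR = 0.0383). Mamdc2 had 7.56, 6.11 and 4.81 CPM at 15 min, again below all naive libraries, and 7.69, 8.66 and 5.72 at 1 h, which overlaps them. In the libraries labelled Tob-KO its log2 fold change from naive to 3 h was 0.11 (-0.88 to 1.1).

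**Figure D1:**
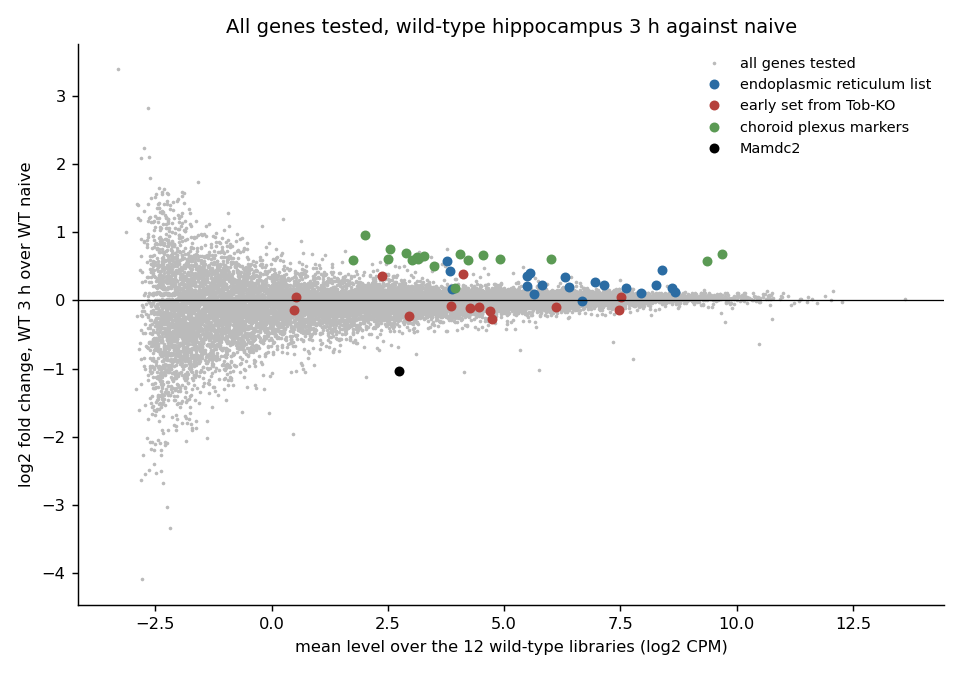
Log2 fold change from WT naive to WT 3 h (vertical axis) against the mean level over the 12 WT libraries in log2 CPM (horizontal axis) for the 18937 genes tested, grey, with the endoplasmic reticulum list in blue, the early set chosen on Tob-KO libraries in red, choroid plexus markers in green and Mamdc2 in black. Of the 19 endoplasmic reticulum genes 18 lie above 0, all 18 choroid plexus markers do, and the early set lies on both sides.

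The size of change that this design could exclude depended on the level of the gene. For 15011 of the 18937 genes (79.3%) the 95% interval of the log2 fold change lay within 2-fold either way, and for 12581 (66.4%) within 1.5-fold. For any gene, an interval that leaves out 0 is the same as an unadjusted p under 0.05 in the edgeR fit. The median half-width of the interval was 2.05-fold for the 4505 genes under 1 CPM, 1.3-fold for those of 1 to 10 CPM, 1.12-fold for those of 10 to 100 CPM and 1.09-fold for the 2385 genes above 100 CPM. The 6 libraries held 29041709 to 35233118 counts. No pair of libraries within a group agreed within sampling noise: their chi-square over genes was 3.68 to 18.0 times its degrees of freedom in the 6 pairs. Markers of the tissue were present in every library, with dentate granule cell markers (Prox1, Dsp, C1ql2, Calb1) summing to 283, 377 and 348 CPM in naive mice and 319.99, 331 and 391 at 3 h.

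Immediate early genes were not distinguishable from naive at 3 h. Fos had 14.5, 14.8 and 12.9 CPM in naive mice, 64.9, 34.8 and 34.6 at 15 min, 34.7, 36.7 and 25.5 at 1 h and 13, 9.0 and 16 at 3 h. All 6 libraries of 15 min and 1 h lay above all naive and 3 h libraries, and the naive and 3 h groups overlapped. The log2 fold change of Fos from naive to 3 h was -0.15 (95% interval -0.69 to 0.40). Arc had 117, 133 and 119 CPM in naive mice, 378, 172 and 230.4 at 15 min, 228, 238 and 169 at 1 h and 87.9, 86.6 and 160.4 at 3 h. The first and second 3 h libraries lay below all naive libraries and the third lay above them, and the log2 fold change was -0.14 (-0.71 to 0.44). Egr1, a zinc finger factor with a high level in unstimulated hippocampus, had 177, 129.98 and 126 CPM in naive mice and 135, 124 and 187 at 3 h (log2 fold change 0.04, -0.50 to 0.59). Its 1 h libraries, at 208, 255 and 204 CPM, all lay above the 3 h libraries.

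Egr2 and Fosb had the highest log2 fold changes from naive in the list of immediate early transcription factors, and both intervals held 0. Egr2 had 2.47, 1.77 and 1.12 CPM in naive mice, 15.5, 6.76 and 5.42 at 15 min, 9.01, 6.69 and 5.35 at 1 h and 2.04, 1.56 and 3.31 at 3 h (3 h against naive 0.36, -0.56 to 1.29). The 3 h libraries overlapped the naive ones, with 1 above their range, and all lay below those of 1 h. Fosb, whose truncated product is long-lived, had 13.8, 8.29 and 11.7 CPM in naive mice, 27, 14.9 and 16 at 15 min, 22, 23.7 and 24.9 at 1 h and 15.7, 12.8 and 15.7 at 3 h. Its log2 fold change from naive was 0.39 (-0.06 to 0.84), and 2 of the 3 h libraries lay above the naive range. Junb, another AP-1 subunit, was at 48.9, 52.3 and 47.2 CPM in naive mice and 44.6, 41.9 and 51.9 at 3 h (-0.10, -0.44 to 0.24). The neuronal factor Npas4 was at 13.3, 10.1 and 9.34 and 8.44, 10 and 12.5 CPM (-0.08, -0.49 to 0.33), and had been at this level at 1 h already, with 10.9, 10.7 and 8.59 CPM after 34.3, 23.1 and 22.4 at 15 min. Dusp1, a phosphatase that switches off MAP kinases, followed the same course, with 61.6, 35.4 and 35.1 CPM at 15 min, 24.1, 26.1 and 20.3 at 1 h and 18.4, 13.6 and 21.5 at 3 h against 25.5, 18.1 and 21 in naive mice (-0.27, -0.73 to 0.20).

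**Figure D2:**
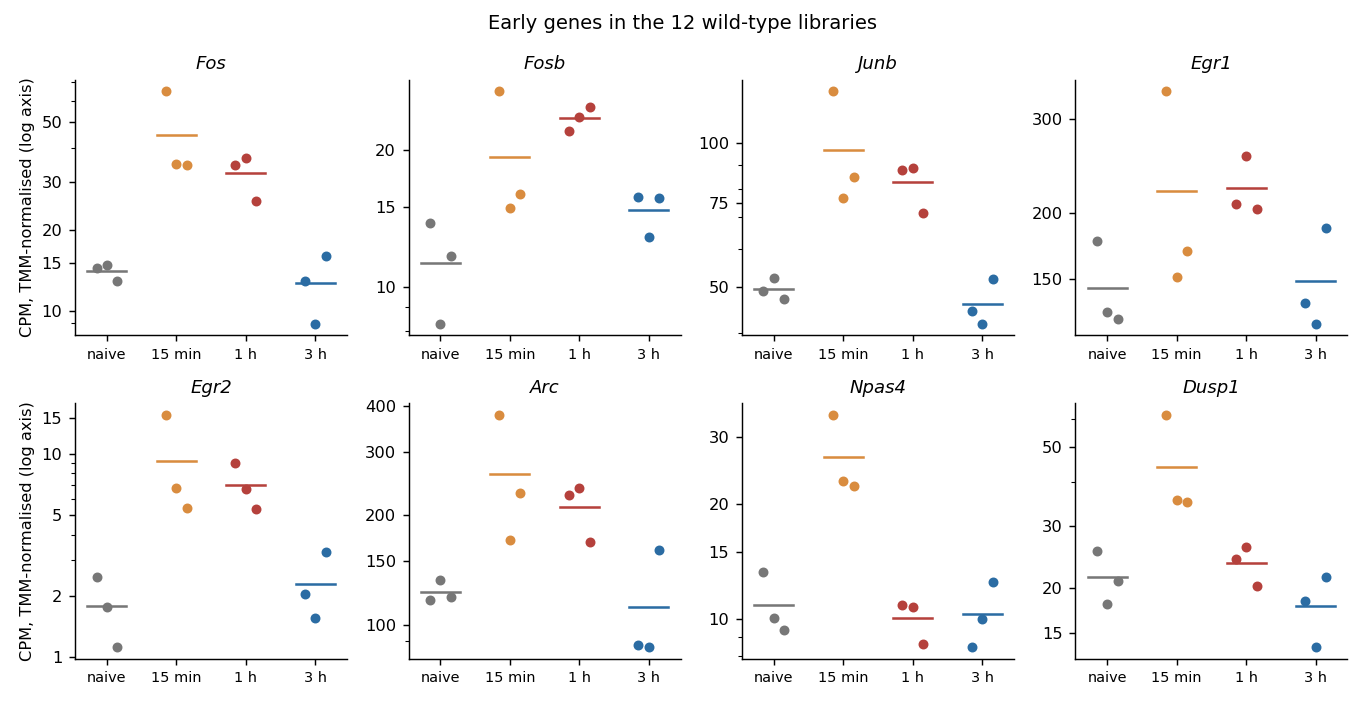
Levels of 8 early genes in the 12 WT libraries, in CPM after TMM normalization on a log axis; each point is 1 mouse and each bar the group mean. The 3 h points overlap the naive points for all 8 genes, and lie below all 1 h points for Fos, Fosb, Junb, Egr1, Egr2 and Arc but not for Npas4 and Dusp1.

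Over the list of 30 immediate early transcription factors, 29 passed the filter on low counts (Fosl1 did not). At 3 h against naive 17 of the 29 had a positive and 12 a negative log2 fold change, 0 had an unadjusted p under 0.05 (3.41% of all genes did), and the median was 0.01, beside -0.0012 over all genes. The exact test and DESeq2 also called none of them at FDR 0.05. The 4 members with the smallest p were Crem (0.19, -0.01 to 0.39), Egr3 (0.24, -0.03 to 0.51), Nr4a3 (0.15, -0.02 to 0.32) and Fosb, all with a positive sign. For 22 of the 29 the interval lay within 1.5-fold either way, and for 28 within 2-fold. Against 1 h, 25 of the 29 had a negative sign (51.5% of all genes had a positive one), 17 of them with an unadjusted p under 0.05 (9.84% of all genes reached it, 4.86% as lower), 1 passed the FDR (Nr4a3), and the median log2 fold change was -0.30. The median of the same genes had been 0.26 at 15 min and 0.34 at 1 h over naive, in comparisons that share the naive libraries with that of 3 h.

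The libraries of a group differed in their early gene levels. The third 3 h library was the highest of its group for 18 of the 29 transcription factors, among them Egr1, Egr2, Egr3, Junb and Fos. How often it was the highest over all genes was not counted. It also had the lowest sum of choroid plexus markers, at 238 CPM against 3577 and 4704, and the part of tissue content in these levels was not tested. At 15 min the first library was the highest of its group for 24 of the 29. Nr4a1, an orphan nuclear receptor, was at 64.1, 64.8 and 62.9 CPM in naive mice and 51.7, 49 and 69 at 3 h, with the first and second 3 h libraries below all naive ones and the third above them (-0.17, -0.67 to 0.32). Bdnf, the neurotrophin, was at 48.5, 49.9 and 42.3 and 43.5, 44.9 and 59.3 CPM (0.07, -0.14 to 0.29), and again only the third 3 h library lay above the naive range.

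A set of early genes that does not rest on the WT libraries was taken from the libraries labelled Tob-KO. In the edgeR fit of these 12 libraries, 159 of 18900 genes passed FDR 0.05 at 15 min (0.841%) and 33 at 1 h (0.175%) against naive. Of these 13 were at least 2-fold higher than naive at the time they passed: Fos, Fosb, Junb, Egr1, Egr2, Npas4, Arc, Dusp1, Btg2, Cyr61, Casq2, Sox3 and the antisense transcript A830036E02Rik. In WT their median log2 fold change over naive was 1.03 at 15 min, 0.62 at 1 h and -0.10 at 3 h. At 3 h, 4 of the 13 had a positive sign, 0 had an unadjusted p under 0.05 in the quasi-likelihood test and in DESeq2, 1 had in the exact test, and the values ranged from -0.27 (Dusp1) to 0.39 (Fosb). The interval of 12 of the 13 lay within 2-fold, but of only 3 within 1.5-fold. Against 1 h, 8 of the 13 were lower at 3 h with an unadjusted p under 0.05 (4.86% of all genes), and none passed the FDR in the fit of the 12 WT libraries. Fos, Fosb and Junb passed it when edgeR was fitted to the 6 libraries compared and in DESeq2, and Fos and Junb with all 24 libraries in 1 fit and with the choroid plexus score as a covariate. In the exact test 8 of the 13 passed, A830036E02Rik among them, which had a positive sign, and without the filter on low counts 4 did. The summed level of the set was 464, 406 and 396 CPM in the naive WT libraries and 368, 336 and 515 at 3 h, after 1148, 582 and 659.9 at 15 min and 672, 729.7 and 566 at 1 h. All 15 min and 1 h sums lay above all naive and 3 h sums. The rule found 6 genes without Tob-KO naive replicate 2, 8 without Tob-KO 15 min replicate 3 and 24 with the exact test over 6 libraries.

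The cysteine-rich matrix protein gene Cyr61 (Ccn1) had 5.16, 4.05 and 3.76 CPM in naive mice, 23.9, 10.1 and 11.4 at 15 min, 9.25, 8.11 and 4.91 at 1 h and 3.58, 3.08 and 4.37 at 3 h. The 1 h libraries still lay above all naive libraries in 2 of 3 mice, whereas at 3 h the groups overlapped (-0.23, -0.93 to 0.47). Btg2, a member of the same anti-proliferative family as Tob, had 20.2, 13.8 and 14.4 CPM in naive mice and 14.6, 13.2 and 17.4 at 3 h (-0.10, -0.43 to 0.24) after 44, 37.5 and 31.5 at 15 min. The antisense transcript A830036E02Rik had 24, 16.7 and 26.9 CPM in naive mice, 14.5, 14.4 and 13 at 1 h and 21.7, 17.9 and 23.1 at 3 h, so that its 1 h libraries were the lowest. It is annotated as antisense to another gene, and since the strand setting of the counting is not given in the sources used here, reads of the pair cannot be told apart.

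The cyclic AMP response element TGACGTCA, by which CREB switches on early genes, lies on either strand in the promoters (250 bases before to 50 after the start) of 2 of the 9 genes of this set with a RefSeq entry (2.03% of 27025 genes with one), Btg2 (chr1:134079303-134079332) and Dusp1 (chr17:26508597-26508626, both reverse strand, GRCm38.p6). Of the 24 immediate early transcription factors with an entry it lies in 1, Maff. Both sites are shown with the element in capitals, on the strand of the gene.
Btg2: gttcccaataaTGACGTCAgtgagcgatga
Dusp1: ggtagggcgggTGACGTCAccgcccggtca
A match describes letters and not binding. In both genes the 3 h libraries overlapped the naive ones, with 1 library below their range.

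Without the limit on the fold change, an alternative added after the data were seen, 85 genes passed FDR 0.05 as higher and 93 as lower at 15 min or 1 h in the libraries labelled Tob-KO. Of the 85, 34 had a positive sign in WT at 3 h against naive, with a median of -0.02, and 0 were higher (1.17% of all genes) and 4 lower (2.24% of all genes) at an unadjusted p under 0.05. Against 1 h, 80 of the 85 were lower at 3 h, 56 of them with an unadjusted p under 0.05 (4.86% of all genes), and 3 passed the FDR (S1pr1, Slc16a1 and Sox21). Of the 93 genes that were lower there, 89 were higher in WT at 3 h than at 1 h, 42 of them with an unadjusted p under 0.05 (4.98% of all genes), and 1 passed the FDR (Mertk). Their median against naive was 0.03, with 3 higher and 1 lower at an unadjusted p under 0.05, beside the same 1.17% and 2.24% of all genes.

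Between 1 h and 3 h, 10 genes differed in WT at FDR 0.05 or less (0.0528% of 18937), 4 of them higher and 6 lower at 3 h, and 1, the vascular gene Apold1, by at least 2-fold. In all 10 genes the naive and the 3 h libraries lay together on the same side of all 1 h libraries. Over all genes the 3 h libraries alone lay above all 1 h libraries in 9.57% and below them in 9.81%. The share of all genes with the naive libraries on that side as well was not counted. Since the 10 genes were chosen for a difference between 3 h and 1 h, the side of their 3 h libraries was largely fixed by that choice. These 3 h libraries entered both comparisons, so the position of 3 h against naive is a description here.

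Apold1, an early gene of endothelial cells (chr6:134981718-134986836), had 3.26, 4.15 and 2.44 CPM in naive mice, 8.27, 6.04 and 7.53 at 15 min, 10.4, 8.54 and 6.26 at 1 h and 3.15, 3.05 and 2.9 at 3 h. The 3 h libraries lay within the naive range and below all 1 h libraries. It fell by 1.47 on the log2 scale from 1 h to 3 h (edgeR quasi-likelihood FDR = 0.0283), and its value against naive was -0.11 (-0.58 to 0.35). Nr4a3, an orphan nuclear receptor of the immediate early class (chr4:48045153-48086447), had 73.8, 84.5 and 70.2 CPM in naive mice, 98.6, 81.9 and 83.1 at 15 min, 118, 126 and 129 at 1 h and 82.9, 86.2 and 83.5 at 3 h. It had its highest levels in the 3 libraries of 1 h and fell by 0.56 to 3 h (FDR = 0.0283), with overlap between 3 h and naive.

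The progenitor transcription factor Sox21 (chr14:118233232-118237030) had 9.85, 13.7 and 11.9 CPM in naive mice, 16.5, 17.6 and 17.3 at 1 h and 9.61, 7.75 and 8.7 at 3 h, and fell by 0.98 from 1 h to 3 h (edgeR FDR = 0.0137). Its 3 h libraries also lay below all naive ones, with a log2 fold change of -0.44 against naive (-0.71 to -0.17) that did not pass the FDR. The lactate and ketone transporter Slc16a1 (MCT1) had 30.4, 33.5 and 35.6 CPM in naive mice, 48.9, 44.9 and 41.3 at 1 h and 30.3, 28 and 27.7 at 3 h, and it fell by 0.65 from 1 h (FDR = 0.0286). All 3 h libraries of Slc16a1 lay below all naive ones, the first of them only just. S1pr1, a receptor for sphingosine 1-phosphate of vessels and astrocytes, had 119, 114 and 114, 164, 151 and 146 and 120.4, 109.9 and 118 CPM in these groups and fell by 0.40 (FDR = 0.0338), to a value against naive of 0.01 (-0.12 to 0.14). Ccdc117 had 21, 21.2 and 22.3, 31.4, 28.2 and 30.3 and 20.2, 18.2 and 19.7 CPM and fell by 0.63 (FDR = 0.0137). Its 3 h libraries, like those of Sox21 and Slc16a1, lay below all naive ones (5.23% of all genes).

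The 4 genes that rose from 1 h to 3 h had been lower at 1 h than in every naive library. Mertk, the receptor by which glia take up debris (chr2:128698956-128802894), had 59.2, 58.8 and 61.7 CPM in naive mice, 45.8, 54.7 and 47.5 at 15 min, 39.4, 36.1 and 46.6 at 1 h and 60.5, 62.2 and 59.9 at 3 h. Its 3 h libraries overlapped the naive ones, with a rise of 0.58 from 1 h (edgeR FDR = 0.0296) and a value against naive of 0.03 (-0.16 to 0.21). Nrros, which holds latent TGF-beta on microglia (chr16:32142785-32165594), had 8.39, 6.33 and 7.36 CPM in naive mice, 4.06, 4.43 and 4.18 at 1 h and 7.07, 9.45 and 7.2 at 3 h and rose by 0.91 from 1 h (FDR = 0.0326). Fam214a (chr9:74952884-75032468) had 49.4, 50.6 and 49.2, 42.7, 39.4 and 42.1 and 55.2, 55.8 and 54.6 CPM and rose by 0.42 (FDR = 0.0137). Its 3 h libraries lay above all naive libraries, by 0.15 on the log2 scale (0.04 to 0.26). The long non-coding RNA Gm21781 had 14.8, 15.4 and 15.4, 9.16, 9.96 and 8.37 and 14.8, 12.7 and 13.7 CPM and rose by 0.59 (FDR = 0.0368).

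For 9 of these 10 genes the interval of 3 h against naive lay within 1.5-fold either way, Sox21 being the exception. All 10 kept their sign in all 17 other settings, but their call was lost when any of WT 3 h replicates 1, 2 or 3 or WT 1 h replicates 1 or 2 was left out (0 genes each), and 15 genes, 7 of the 10 among them, passed without WT 1 h replicate 3. With only the 6 libraries of 1 h and 3 h in the fit 102 genes passed, the 10 among them.

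**Figure D3:**
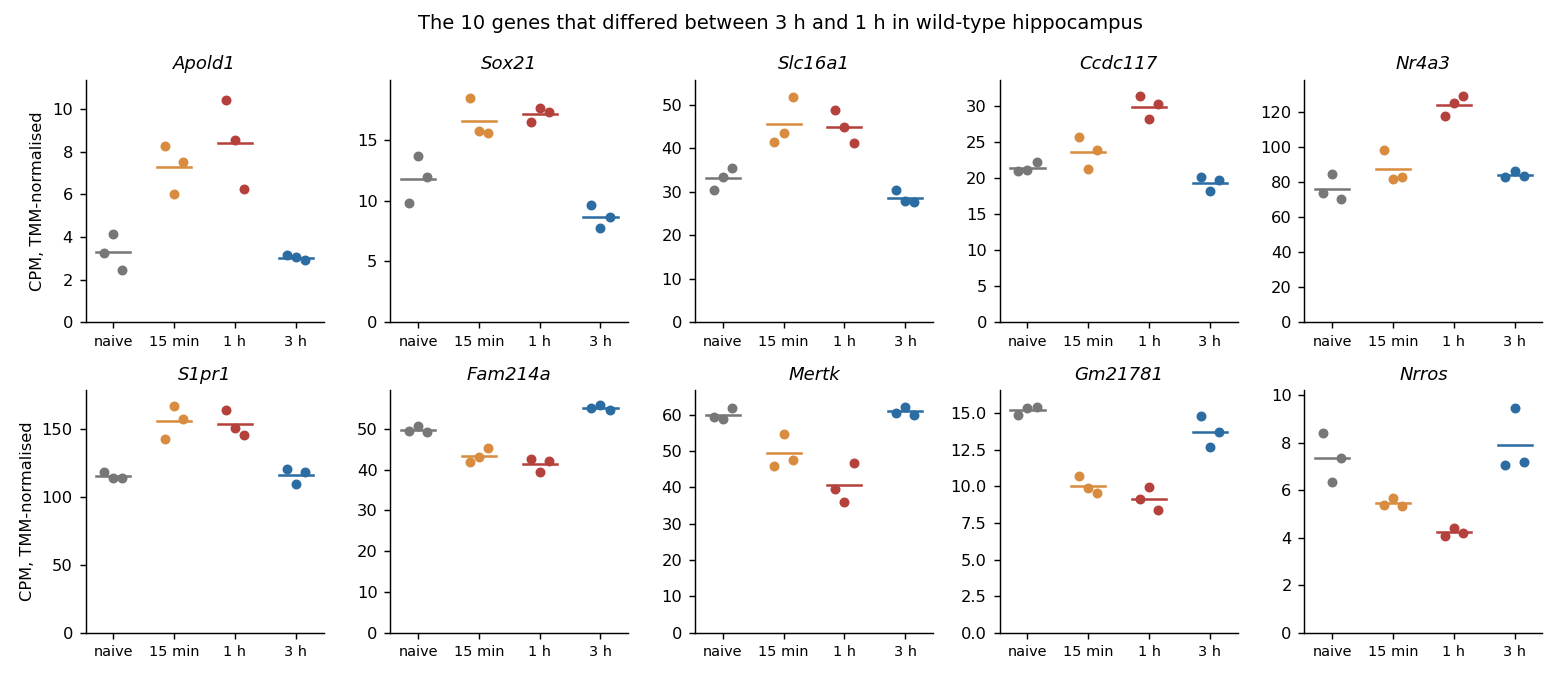
Levels of the 10 genes that differed between 1 h and 3 h in WT hippocampus, in CPM after TMM normalization on axes that start at 0; each point is 1 mouse and each bar the group mean. In every panel all naive and 3 h points lie on the same side of all 1 h points.

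Genes of protein folding in the endoplasmic reticulum had higher levels at 3 h than in naive mice in most libraries, though none passed the FDR. Of the 19 genes of this list, all tested, 18 had a positive log2 fold change (49.5% of all genes), 10 had an unadjusted p under 0.05 in that direction (1.17% of all genes), and for 12 the 3 h libraries lay above all naive ones (4.37% of all genes). The median was 0.22, beside -0.0012 over all genes. This list, like the others, was chosen with earlier results of these data known. Its counts, and the promoter share given below, therefore describe the list and do not test it. Against 1 h, in a comparison that shares the 3 h libraries, 17 of the 19 had a positive sign, 9 of them with an unadjusted p under 0.05 (4.98% of all genes). The endoplasmic reticulum stress element is CCAAT and CCACG with 9 further bases between them, on either strand. It was sought from 250 bases before to 50 bases after the start. Of the 17 genes of the list with an entry among the RefSeq promoters, 7 had it (41.2%), as did 37 of 27025 genes with an entry in all (0.137%). The promoter of Hspa5 (chr2:34771840-34772139, forward strand, RefSeq annotation of GRCm38.p6) is shown with this match in capitals, as the gene of the list with the best known promoter of this kind.
Hspa5 promoter: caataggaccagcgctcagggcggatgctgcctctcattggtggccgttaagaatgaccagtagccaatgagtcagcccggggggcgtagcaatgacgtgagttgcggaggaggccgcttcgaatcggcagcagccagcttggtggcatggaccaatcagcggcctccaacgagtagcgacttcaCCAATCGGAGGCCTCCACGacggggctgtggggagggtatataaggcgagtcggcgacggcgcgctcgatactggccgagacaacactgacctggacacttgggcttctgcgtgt
The matches of the other genes, shown on the strand of the gene with the element or its reverse complement in capitals, differ in the 9 bases between the fixed ends. They lie at chr15:88819515-88819544 (Creld2), chr14:118937822-118937851 (Dnajc3), chr10:86705527-86705556 and chr10:86705632-86705661 (Hsp90b1), chr12:17266486-17266515 (Pdia6), chr8:84847069-84847098 (Calr) and chr11:50325794-50325823 (Canx).
Creld2: cttctCGTGGCGAGCCTCAATTGGtccaca
Dnajc3: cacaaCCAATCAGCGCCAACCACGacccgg
Hsp90b1, nearer the start: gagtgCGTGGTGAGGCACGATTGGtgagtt
Hsp90b1, farther from the start: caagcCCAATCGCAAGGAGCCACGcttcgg
Pdia6: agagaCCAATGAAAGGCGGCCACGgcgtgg
Calr: caacgCGTGGTCGACCCTCATTGGcccata
Canx: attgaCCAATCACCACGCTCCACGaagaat
Of the 7 genes with a match, Hspa5, Creld2 and Dnajc3 had an unadjusted p under 0.05 at 3 h and Hsp90b1, Pdia6, Calr and Canx did not. Sdf2l1, the member with the largest fold change, has an entry without a match.

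Hspa5 (chr2:34771970-34777547) had 335, 265 and 302 CPM in naive mice, 215, 367 and 360.1 at 15 min, 303, 318 and 341 at 1 h and 464, 396 and 374 at 3 h. All 3 h libraries lay above all naive and all 1 h libraries. The log2 fold change from naive was 0.45 (SE 0.16, 95% interval 0.11 to 0.80) and from 1 h 0.36 (0.02 to 0.71). Creld2 (chr15:88819646-88826683), an endoplasmic reticulum protein induced with Hspa5, had the smallest p of the genes with a higher level at 3 h. It had 12.2, 11.2 and 12.1 CPM in naive mice and 16.8, 15.8 and 15.4 at 3 h, with no overlap and a log2 fold change of 0.44 (0.21 to 0.66). Its levels at 15 min and 1 h were 11.7, 16.1 and 14.6 and 14.3, 14.3 and 15 CPM.

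Sdf2l1, a partner of BiP co-chaperones, had the largest fold change of the list, with 13.2, 9.74 and 10.4 CPM in naive mice and 18.2, 16 and 15.6 at 3 h (0.58, 0.09 to 1.07). The secreted factor Manf had 45.1, 37.4 and 39.5 and 57.6, 52.9 and 50.8 CPM (0.40, 0.11 to 0.70). The disulphide isomerase Pdia4 had 46.4, 36.8 and 37 and 57.5, 50.2 and 46.6 CPM (0.36, 0.07 to 0.65), where the highest naive library lay just below the lowest 3 h library. The co-chaperones Dnajb11 (0.22, 0.04 to 0.41) and Dnajc3 (0.20, 0.0041 to 0.40), the nucleotide exchange factor Hyou1 (0.22, 0.03 to 0.42) and the degradation factor Herpud1 (0.21, 0.03 to 0.39) had smaller values.

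Of the regulators in the list, Xbp1, the transcription factor whose mRNA is spliced in the unfolded protein response, had 76.1, 65.6 and 65.7 CPM in naive mice and 93.3, 82.1 and 87.8 at 3 h without overlap (0.35, 0.11 to 0.58). Gene counts do not separate its spliced and unspliced forms. Ddit3 (CHOP), induced in prolonged stress of this compartment, had 16.4, 12.1 and 12.5 and 15.3, 14.3 and 16.6 CPM with overlap (0.17, -0.08 to 0.42). Atf4, which acts in the branch that runs through translation, had 101, 94.3 and 100.3 and 93.5, 94.5 and 106 CPM (-0.0037, -0.12 to 0.11). The abundant calcium-binding chaperones Calr (0.18, -0.14 to 0.51), Canx (0.12, -0.03 to 0.27) and Hsp90b1 (0.23, -0.06 to 0.51) had positive values with intervals that held 0. Ero1lb, an oxidase that supplies the isomerases and is no member of the list, was among the 15 genes with the smallest p of a positive sign, at 22.4, 21.3 and 21.5 and 25.9, 24.5 and 24.7 CPM (0.21, 0.08 to 0.33).

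The members shared their ups and downs from mouse to mouse and are not separate replicates: the first 3 h library was the highest of its group for 14 of the 19. The summed level of the list was 2754, 2394 and 2587 CPM in naive WT mice and 3143, 2978 and 2879 at 3 h, which do not overlap. It was 2133, 2898 and 2987 at 15 min, where the first library was the lowest of its group for 17 of the 19 genes while it was the highest for 24 of the 29 early transcription factors, and 2484, 2532 and 2598 at 1 h. In the libraries labelled Tob-KO the sums were 2430.1, 2845 and 2928 in naive animals, a wider range than the difference between the WT 3 h and naive means, and 2483, 2733 and 2276 at 3 h.

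In the libraries labelled Tob-KO 4 of the 19 had a positive log2 fold change from naive to 3 h (49.6% of all genes did), with a median of -0.10, none higher (5.67% of all genes) and 2 (Pdia4 and Pdia3) lower (4.3% of all genes) at an unadjusted p under 0.05. Of 18900 genes 0 passed the FDR between Tob-KO 3 h and naive in this edgeR test, 3 did in the exact test and 9 in DESeq2, and 1884 (9.97%) had an unadjusted p under 0.05, or 1043 without Tob-KO naive replicate 2. Hspa5 was at 268, 375 and 376 CPM in the naive libraries labelled Tob-KO and 268, 337 and 234 at 3 h (-0.28, -0.59 to 0.03). The groups overlapped, and the third 3 h library was the lowest of the 6. The WT minus Tob-KO difference in change from naive to 3 h was positive for 18 of the 19 (48.7% of all genes), with an unadjusted p under 0.05 for 12 (2.1% of all genes), a median of 0.36 and the smallest p for Creld2 (0.66, 0.28 to 1.03). None passed the FDR, as 0 of 19500 genes did in this test (924 or 4.74% at an unadjusted p under 0.05), so that a change particular to WT mice was not shown for any gene. The 924 became 588 without Tob-KO naive replicate 2 and 1394 without Tob-KO naive replicate 1. The WT count of 10 members with an unadjusted p under 0.05 became 4 without WT naive replicate 2, 5 without WT naive replicate 3 and 4 without WT 3 h replicate 1, and the count of positive signs stayed at 18 or 19 in all 17 other settings. Choroid plexus markers summed to 295, 7534 and 3871 CPM in Tob-KO naive libraries and 3387, 252 and 261 at 3 h. Their difference between genotypes was positive for all 18 (median 2.21), with 0 at an unadjusted p under 0.05. The part of choroid plexus RNA in the genotype difference of the endoplasmic reticulum genes was not tested.

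**Figure D4:**
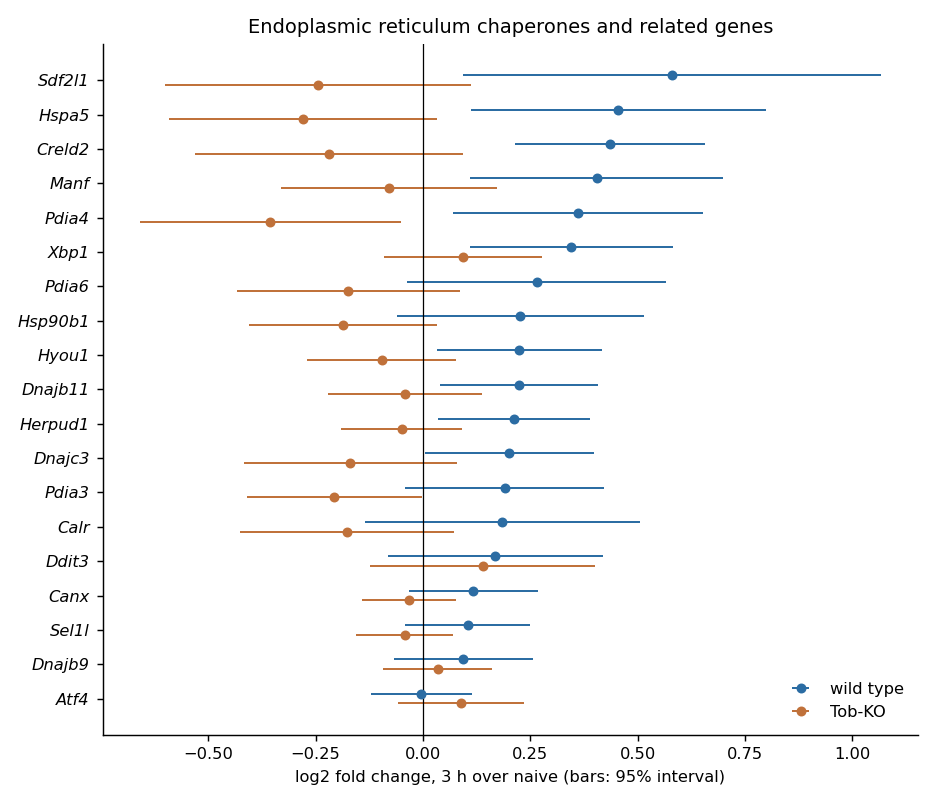
Log2 fold change from naive to 3 h of the 19 genes of the endoplasmic reticulum list in WT (blue) and in libraries labelled Tob-KO (orange), with 95% intervals from the edgeR fit of the 12 libraries of each genotype. In WT 10 intervals lie above 0; in Tob-KO 2 lie below 0 (Pdia4 and Pdia3).

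Heat shock genes, most of them cytosolic, had values of the same sign and smaller size. Of 19 genes tested, 17 had a positive log2 fold change at 3 h against naive (49.5% of all genes did), with a median of 0.12, 3 were higher with an unadjusted p under 0.05 (1.17% of all genes), and for 9 the 3 h libraries lay above all naive ones (4.37% of all genes). The 3 were the inducible Hsp70 gene Hspa1b (0.51, 0.06 to 0.96), its co-chaperone gene Dnajb1 (0.14, 0.0011 to 0.29) and Hspa2 (0.14, 0.01 to 0.28). Hspa1b had 8.17, 10.7 and 10.6 CPM in naive mice and 15.7, 11.7 and 14.7 at 3 h, but its near-identical neighbour Hspa1a had 8.31, 9.64 and 8.82 and 11, 8.96 and 9.73 CPM with overlap (0.15, -0.11 to 0.41), and reads shared by this pair make either gene uncertain. The count of 3 was 0 without WT 3 h replicate 1, 1 without WT naive replicate 1 or 2, and 7 without WT naive replicate 3.

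Small fold changes without overlap were seen for the abundant chaperone genes Hspa8 and Hsp90aa1. Hspa8 had 1543, 1541 and 1650.02 CPM in naive mice and 1766, 1738 and 1706 at 3 h (0.14, -0.03 to 0.31), and Hsp90aa1 had 1114, 1094 and 1122 and 1229, 1187 and 1189.5 CPM (0.12, -0.02 to 0.25). The 3 h libraries lay above all naive ones for both genes, though the intervals held 0. Dnajb1 was at 65.6, 68.3 and 71.5 CPM at 1 h, above all 3 h libraries at 54.4, 50.3 and 53.2 and all naive libraries at 48.2, 45.5 and 49.4. The cold-inducible RNA-binding protein genes Rbm3 (-0.07, -0.50 to 0.36) and Cirbp (-0.11, -0.40 to 0.18) were the members with a negative sign. In the libraries labelled Tob-KO 6 of the 19 had a positive sign at 3 h, with a median of -0.03. The heat shock element (GAA, TTC and GAA, each set apart by 2 bases, on either strand) lies in the promoters of 4 of 13 genes with an entry (Chordc1, Hspd1, Hspe1 and Hsph1) and of 0.662% of all genes with one. Hspd1 and Hspe1, whose products are mitochondrial chaperones, lie on opposite strands. Their matches (chr1:55088050-55088079 and chr1:55088051-55088080) are the same stretch, which was counted for both genes.

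Glucocorticoid-responsive genes had values of both signs. Fkbp5, a co-chaperone of the glucocorticoid receptor that the hormone induces (chr17:28399094-28517527), had 75, 75.5 and 68.4 CPM in naive mice, 65.6, 62.4 and 67.3 at 15 min, 66.4, 65.7 and 75.9 at 1 h and 76.9, 90.7 and 92.9 at 3 h. All 3 h libraries lay above all others of these groups, with the first 3 h library only just above the highest naive one. The log2 fold change was 0.25 from naive (0.09 to 0.42) and 0.33 from 1 h (0.16 to 0.49, edgeR FDR = 0.149), and neither passed the FDR. It was 1 of 22 members with an unadjusted p under 0.05 (3.41% of all genes). Of the 22, 15 had a positive sign, with a median of 0.06. Against 1 h, 6 of the 22 were higher (4.98% of all genes) and 7 lower (4.86%) at an unadjusted p under 0.05. In that comparison 1 member passed the FDR, and the median was 0.01.

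Plin4, a lipid droplet protein gene, had 19, 22.8 and 6.9 CPM in naive mice, 5.17, 4.12 and 4.13 at 15 min, 3.14, 4.0 and 12.2 at 1 h and 24.4, 28.2 and 29.7 at 3 h. The naive libraries spread widely, and the 3 h libraries lay above all of them (0.76, -0.14 to 1.66) and above the 1 h libraries (2.11, 1.15 to 3.06). Tsc22d3 (GILZ) had 85.4, 85.5 and 81 and 89, 102 and 97.8 CPM in naive and 3 h mice without overlap (0.20, -0.01 to 0.41). Sgk1, a kinase induced by hormone and by activity, had 78.1, 129.6 and 85.4 CPM in naive mice, 162, 146 and 158 at 1 h and 92.7, 111 and 85.8 at 3 h (-0.02, -0.52 to 0.48), so that its 1 h libraries lay above both other groups. Per1, a clock gene with the same 2 inputs, had 85.8, 97.8 and 94.2, 127, 139 and 119 and 91.6, 85.8 and 90.6 CPM (-0.05, -0.48 to 0.38).

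Among 32 activity-induced effector genes, Homer1, a scaffold of metabotropic glutamate receptors (0.30, 0.04 to 0.56), was the only member with an unadjusted p under 0.05 (3.41% of all genes). It had 185, 152 and 165 CPM in naive mice and 199.9, 178 and 238 at 3 h, with overlap of 1 library in each group. Inhba, an activin subunit, had 4.49, 4.76 and 4.82 and 5.89, 4.85 and 6.7 CPM, the only member with all 3 h libraries above the naive ones (4.37% of all genes; 0.31, -0.03 to 0.66). The kinase gene Plk3 had 9.68, 9.51 and 9.54 and 9.51, 7.93 and 9.01 CPM (-0.12, -0.44 to 0.20) and the receptor gene Gpr3 4.86, 5.3 and 6.01 and 4.19, 4.78 and 4.65 CPM (-0.25, -0.59 to 0.10), with all 3 h libraries below the naive ones for both (5.23% of all genes), for Plk3 by less than the rounding. Sik1, a kinase that ends CREB signalling, had 12.9, 15.2 and 15.6, 31.6, 24.3 and 19.4 and 13.5, 10.1 and 10 CPM in naive, 1 h and 3 h mice (-0.37, -0.86 to 0.11). Of the 32, 21 had a positive sign, with a median of 0.06. The prostaglandin synthase Ptgs2 (0.23, -0.03 to 0.48) had overlap between the groups.

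The other lists had no more than 1 member with an unadjusted p under 0.05 at 3 h (3.41% of all genes, 1.17% as higher and 2.24% as lower). In the circadian list of 19 this was Clock (0.11, 0.02 to 0.20), with 117, 122.97 and 121 CPM in naive mice and 127, 129 and 132 at 3 h, and the next, Cry1, was -0.21 (-0.47 to 0.04). In the list of 16 stress and hormone receptors it was the melanocortin receptor Mc4r (0.33, 0.02 to 0.63), and among 29 glutamate receptor genes the NMDA receptor subunit Grin2d, of negative sign (-0.20, -0.38 to -0.01). There was none among 18 genes of ERK kinases and their feedback, 20 of the GABA synapse, 18 neuropeptides, 13 inflammatory genes, 17 of cholesterol synthesis, 14 of the Tob/Btg family and related binders of mRNA ends, and 12 of the mitochondrial genome. Their medians lay between -0.06 and 0.03. Cholesterol synthesis genes were lower at 3 h than at 1 h in 16 of 17 cases, 7 of them with an unadjusted p under 0.05 (4.86% of all genes), with a median of -0.19, and their median against naive was 0.01. Cyp51, an enzyme of this pathway, had 62.6, 58.6 and 57.4 CPM in naive mice, 78, 81.6 and 73.8 at 1 h and 61.4, 63.2 and 62.2 at 3 h.

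Tob1, Lcn2 and receptors of the stress axis, which the study followed by other means or named, were not distinguishable from naive at 3 h in WT mice. Tob1 had 43.1, 37.5 and 33.7 CPM in naive mice and 37.9, 38.8 and 40.7 at 3 h (0.04, -0.13 to 0.21). The iron-binding lipocalin Lcn2 had 0.926, 0.418 and 0.693 and 0.435, 0.90 and 0.218 CPM, levels that overlapped (-0.41, -2.25 to 1.43). The receptors Crhr2 (-0.21, -0.98 to 0.56), Avpr1a (-0.61, -1.76 to 0.54) and Mc3r (-1.25, -2.87 to 0.38) had wide intervals at low levels, the highest being that of Crhr2 with 3.33 ± 1.07 CPM (mean ± SD, n = 3) in naive mice. Avpr1a lay below the naive range in 2 of the 3 h libraries, at 1.07, 0.485 and 0.125 CPM against 0.954, 0.996 and 0.594.

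The 15 genes with the smallest p in each direction did not pass the FDR, and 11 of the 15 of negative sign were at less than 4 CPM in every WT naive and 3 h library. Of positive sign, Dio2, the enzyme that activates thyroid hormone in glia, had 77.4, 78.1 and 77.1 CPM in naive mice, 95.7, 102 and 111 at 1 h and 90.2, 93.3 and 111 at 3 h (0.34, 0.16 to 0.52). It lay above the naive range at both times. Pde10a, a phosphodiesterase of cyclic nucleotides, had 94.9, 84.7 and 96.1 and 106, 107 and 107 CPM (0.21, 0.08 to 0.34), and Fam20a (0.30), Gpr22 (0.16), Schip1 (0.16), Ascc3 (0.26), Zfp719 (0.24), Htatip2 (0.30), Pcdha11 (0.49), Arl11 (1.74) and 1700003M07Rik (0.38) had no overlap either. Pcdha11 shares its last exons with the other genes of its cluster. Mir135a-2 was in this group on few counts and is not described further.

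Of negative sign, Sox11, a factor of newborn neurons, had 24, 21.9 and 24.6 CPM in naive mice, 22.7, 22.8 and 21.5 at 1 h and 18.8, 18.9 and 19.4 at 3 h, below all libraries of those groups (-0.30, -0.45 to -0.15). The proliferation-linked Cdca7 (-0.58, -0.91 to -0.25) had 2.64, 3.18 and 3.37 and 2.14, 2.11 and 1.87 CPM. Cd33, a sialic acid receptor of microglia, had 8.48, 9.48 and 9.28 and 6.46, 5.78 and 7.39 CPM (-0.47, -0.70 to -0.24), while the microglial marker P2ry12 was at -0.16 (-0.33 to 0.01) and Cx3cr1 at -0.05 (-0.24 to 0.14). Gm26917 had 112, 58.1 and 45.7 CPM in naive mice against 38.4, 34.1 and 33.7 at 3 h, with the first naive library far above the others (-1.02, -1.60 to -0.44). Slfn8 (-1.11), Slc38a5 (-0.69), Sp7 (-1.01), Hapln3 (-0.79), Adat3 (-0.71), Clec2d (-0.69), Pde6h (-1.47), 2310010G23Rik (-1.90), Gm43318 (-2.03) and Gm38120 (-2.06) were the remainder.

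Markers of some other cell types shared a sign at 3 h against naive, though no marker passed the FDR. Bulk RNA cannot tell fewer cells of a type from less RNA per cell. All 5 endothelial markers had a negative log2 fold change at 3 h against naive, with a median of -0.31, and for 3 the 3 h libraries lay below all naive ones (5.23% of all genes). Slco1a4, a transporter of the blood-brain barrier, had 44.6, 33 and 40.5 CPM in naive mice and 30.6, 29 and 28.9 at 3 h (-0.41, -0.69 to -0.14), Itm2a had 34.3, 26.5 and 34.4 and 25.2, 25.6 and 26 CPM (-0.31, -0.55 to -0.07), and Cldn5, the tight junction claudin of brain vessels, had 21.2, 17.2 and 21 and 15.7, 12.7 and 17 CPM (-0.38, -0.86 to 0.09). The summed endothelial level was 184, 137 and 168 CPM in naive mice and 134, 128 and 139 at 3 h, after 211, 265 and 207 at 15 min, where it was highest. All 7 blood genes also had a negative sign, with a median of -0.42, none of them with an unadjusted p under 0.05, and sums of 66.1, 50 and 72.2 CPM in naive mice and 42.3, 44 and 56.2 at 3 h. Haemoglobin genes share near-identical copies. Apold1, S1pr1 and Slc16a1, which fell from 1 h to 3 h, are expressed in vessels among other cells, and the part of vessel RNA in their change was not tested.

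Choroid plexus RNA varied within both groups. All 18 markers had a positive sign, with a median of 0.61 and none with an unadjusted p under 0.05. Their sum was 4016, 1269 and 227 CPM in naive mice and 3577, 4704 and 238 at 3 h, so that the third library of each group was low. Ttr, the transthyretin gene of this epithelium, had 2104, 579 and 16.8 and 1855, 2432 and 17.2 CPM (0.69, -2.49 to 3.86). With the mean log2 level of these markers as a covariate, 10 of the 19 endoplasmic reticulum genes had an unadjusted p under 0.05 and 19 a positive sign, and without the 2 low libraries, a comparison added after the data were seen, 6 and 18. The 10 genes that differed between 1 h and 3 h were among the 48 called with the covariate. Oligodendrocyte markers had a negative sign in 6 of 6 cases (median -0.12, sums of 4973, 6542 and 4669 CPM in naive mice and 4881, 4742 and 5655 at 3 h), and excitatory neuron markers a positive one in 3 of 4 (median 0.06). No other marker list (CA1, CA3 and dentate neurons, interneurons, astrocytes, microglia, ependyma and fibroblasts) held a gene with an unadjusted p under 0.05, and their medians lay between -0.20 and 0.10. Thalamic and striatal markers, signs of neighbouring tissue, had sums of 125, 170.4 and 111 and 125, 84.3 and 93.2 CPM in naive mice and 138, 103 and 86.1 and 110.3, 106 and 84.6 at 3 h. All 5 thalamic markers (median -0.20), 5 of 6 striatal ones (median -0.18) and all 5 of the ependyma (median -0.20) had a negative sign, with none at an unadjusted p under 0.05.

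**Figure D5:**
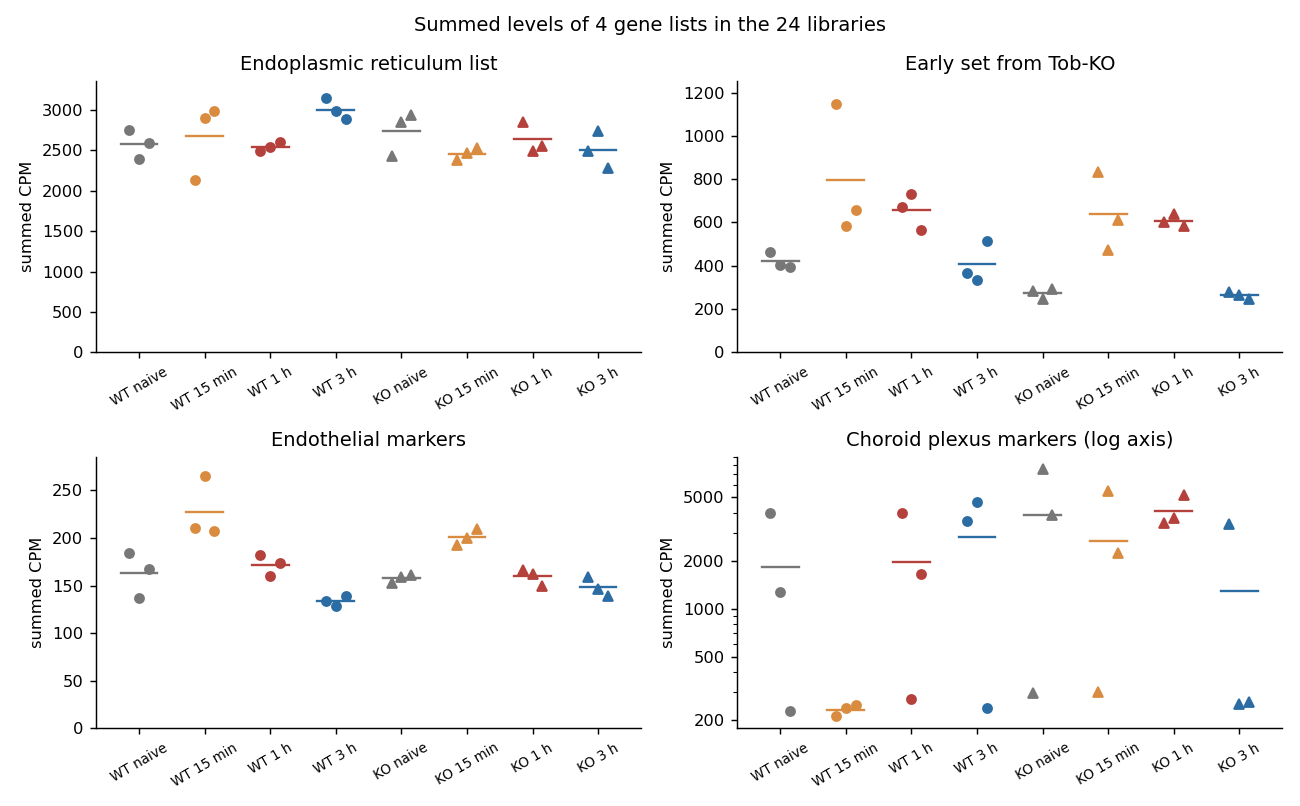
Summed CPM of 4 gene lists in each of the 24 libraries by genotype and time (circles WT, triangles labelled Tob-KO; bars are group means; the choroid plexus panel has a log axis). The endoplasmic reticulum sum is higher in all WT 3 h libraries than in any WT naive library, the early set is highest at 15 min and 1 h in both genotypes, and the choroid plexus sum spans over 10-fold within the WT naive and WT 3 h groups.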

How the data were processed

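The counts deposited by the authors are unnormalized reads per gene for 24 poly(A) RNA libraries, made per the submitters' processing notes with STAR 2.6.1d and HTSeq 0.9.0 on GRCm38. The annotation release, strand setting and handling of duplicates are not given in the sources used here. Of 47593 genes 31032 had a count. Libraries held 28847989 to 41595972 counts.

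Each comparison was a contrast of edgeR's quasi-likelihood test (edgeR 4.0.16, limma 3.58.1, R 4.3.3) over the 12 libraries of a genotype, with TMM normalization, at least 0.2 CPM in 2 libraries and Benjamini-Hochberg FDR of 0.05 or less. DESeq2 1.42.0 and edgeR's exact test were alternatives. The test of the difference between genotypes used all 24 libraries. The methods were tested on simulated data with counts drawn independently per gene and library. Differences between mice that many genes share were not simulated. Printed levels are TMM-scaled CPM. Genes named are the 15 with the smallest p per direction, genes passing against 1 h, early genes and list members. The members and lists were chosen with earlier results of these data known. The deviations of same-numbered WT naive and 3 h libraries correlated at 0.13, -0.04 and 0.30. The labels give no batch or pairing behind the numbers, so the reported fits had no replicate block. Whether same-numbered libraries shared a batch was not tested further. Coordinates are from GENCODE's annotation and promoters from RefSeq, both on GRCm38. The paper counts its replicates as biological, and each library was taken as a separate mouse.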

Additional observations from a re-analysis of the deposited data

How the results depend on the processing

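Genes that passed FDR 0.05 between WT 3 h and naive numbered 0 in the reported fit and in 14 of 17 other settings, and 1 (Mamdc2) with the exact test, with DESeq2 and without a filter on low counts. Leaving out 1 library gave 0 each time. Genes with an unadjusted p under 0.05 were 467 to 865 over these settings.

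The 10 genes that passed between WT 3 h and 1 h became 102 with only the 6 libraries compared, 44 with all 24 libraries in 1 fit, 351 with the exact test, 195 with DESeq2, 121 without a filter and 48 with the choroid plexus score as a covariate. They became 0 without the 2 WT libraries with little choroid plexus RNA, a setting added after the data were seen, and 0 to 15 when 1 library was left out. All 10 kept their sign in every setting. The cause of these shifts was not tested.

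Between Tob-KO 3 h and naive 0 genes passed, against 3 with the exact test, 9 with DESeq2 and 1 without a filter. Unadjusted p under 0.05 was reached by 1884 genes, by 1051 with the exact test and by 1043 to 2263 when 1 library was left out. In the genotype by time test no setting gave a passing gene, and the 924 genes with an unadjusted p under 0.05 became 588 to 1394 when 1 library was left out.

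The early set of 13 genes had 24 with the exact test and 6 to 15 when 1 library was left out. Its 0 genes with an unadjusted p under 0.05 in WT became 1 with the exact test and without a filter, and 0 to 1 when 1 library was left out. The 10 endoplasmic reticulum genes at that level became 6 without the 2 libraries with little choroid plexus RNA and 4 to 11 when 1 library was left out. The 3 heat shock genes became 7 with only the libraries compared, 1 with library size alone, 5 without a filter and 0 to 7 when 1 library was left out.

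With the replicate block, 1 gene (Ccdc117) passed between WT 3 h and 1 h in place of 10, and 1 of the early set had an unadjusted p under 0.05. The WT naive and 3 h libraries of number 1 and 3 correlated best with each other and those of number 2 did not. These correlations do not settle whether the numbers pair the libraries. The block moved no other count given for the endoplasmic reticulum list, the heat shock list or the early set, and no count at an unadjusted p under 0.05, by over 1.5 times.

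Of 69 single genes followed in WT 3 h against naive, 55 kept their sign in every setting. With 3 mice per group, intervals under 1 CPM were typically wider than 2-fold either way, so changes of that size could not be seen there.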
